A study of Caenorhabditis elegans with 2 samples.

Results

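The genes described here encode subunits of the machinery of messenger RNA transcription in Caenorhabditis elegans: RNA polymerase II (Pol II), the initiation factor TFIID, Mediator and Integrator. They were chosen by name, as every protein-coding gene of the WBcel235 annotation whose symbol begins with rpb-, taf-, mdt- or ints-. This gave 59 of the 19973 coding genes on the 6 nuclear chromosomes, of which 11 were Pol II genes, 17 TFIID genes, 20 Mediator genes and 11 Integrator genes. At each of them the binding of OEF-1, a nuclear protein of the germline, was read from chromatin immunoprecipitation with sequencing (ChIP-seq).

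The samples were hermaphrodite L4 larvae of strain OP383, genotype unc-119(tm4063) III; wgIs383, collected 52 h after they had been synchronized as starved L1 larvae. Both were whole animals carrying the integrated array wgIs383, from which oef-1 (sequence name F49E8.2) is expressed with a C-terminal GFP-FLAG tag, and the tagged protein was precipitated with an antibody to GFP. There was 1 group of 2 biological replicates, numbered 3 and 4, and no second condition. Germ cells and somatic cells were not separated, no untagged strain was analysed here, and the labels name the genotype without a mutation of the endogenous oef-1 gene.

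Pol II copies genes into messenger RNA. TFIID, made of the TATA-binding protein and TBP-associated factors (TAFs), recognizes core promoters, and Mediator relays signals from bound regulators to the polymerase. Integrator associates with Pol II, cleaves nascent transcripts, among them those of spliceosomal small nuclear RNAs, and recruits a phosphatase, as known from human and fly cells. Oocytes store much of the product of such genes for the embryo, whose nuclei are at first transcriptionally silent.

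A gene was called bound when a peak summit lay within 500 bp of its annotated 5' end in the authors' optimal list of 1339 reproducible peaks. By this rule 6 genes were bound: rpb-9, rpb-11 and rpb-12 of Pol II, taf-12 of TFIID, mdt-22 of Mediator and ints-4 of Integrator. The sequences under 5 of these summits are printed here, since they are the DNA at which OEF-1 was recovered. Each run holds the summit base and 50 bases to either side, in WBcel235 (ce11) coordinates from the RefSeq genome, 5' to 3' on the strand of the gene. Capitals mark AGCGCG or ACGCGC (on either strand), which are among the 3 6-mers most concentrated at OEF-1 summits in these lists. The sequence at ints-4 is not shown.
rpb-11, chrII:14059916-14060016, plus strand: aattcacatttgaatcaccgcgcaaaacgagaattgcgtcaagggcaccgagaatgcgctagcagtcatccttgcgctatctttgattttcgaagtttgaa
rpb-12, chrIV:9147152-9147252, minus strand: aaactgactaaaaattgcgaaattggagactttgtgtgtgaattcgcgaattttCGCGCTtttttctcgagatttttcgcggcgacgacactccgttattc
rpb-9, chrV:8012207-8012307, minus strand: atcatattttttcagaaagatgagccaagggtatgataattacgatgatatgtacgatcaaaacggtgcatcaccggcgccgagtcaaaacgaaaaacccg
taf-12, chrIII:11869522-11869622, minus strand: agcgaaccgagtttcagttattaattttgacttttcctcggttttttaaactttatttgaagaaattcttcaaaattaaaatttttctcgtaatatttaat
mdt-22, chrII:10301114-10301214, plus strand: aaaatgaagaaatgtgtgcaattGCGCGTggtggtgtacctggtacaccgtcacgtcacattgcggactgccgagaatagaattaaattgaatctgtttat

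The windows differed in base composition and in the 6-mers they held. The third 6-mer, GCGCGC, lay at none of the 6 member summits. At least 1 of the 3 6-mers lay at 3 of the 6 (rpb-12, mdt-22 and ints-4), at 246 of the 1312 other nuclear summits (18.8%) and in 3.98% of windows of the same size centred 100 bp upstream of all coding 5' ends. They were picked on these same summits, so the share at summits is a description. GC content was 23.8% at taf-12, 48.5% at ints-4 and between 41.6% and 44.6% at the other 4. The mean was 40.4% ± 8.57 (SD, n = 6), against 43.8% ± 8.76 at the 1312 other summits (SD, over summits).

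The optimal list thus held 6 of the 59 genes (10.2%, exact 95% binomial interval 3.82 to 20.8), against 3.85% of the 19914 other coding genes. The interval, which covers counting error and nothing else, reached just below that background. By complex the counts were 3 of 11 Pol II genes (27.3%, interval 6.02 to 61.0), 1 of 17 TFIID genes (5.88%, 0.149 to 28.7), 1 of 20 Mediator genes (5.00%, 0.127 to 24.9) and 1 of 11 Integrator genes (9.09%, 0.230 to 41.3). The 4 intervals were wide and overlapped. Overlap alone does not settle whether the complexes differed in binding, and no test between them was made. All 6 genes were also within 500 bp of a candidate summit in the pooled list and in the full list of each replicate, as were 3.81% of other coding genes in all 4 lists. At the 6 genes the pooled signals, ranks and summits were the same as the optimal ones, so presence in the pooled list adds no evidence.

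In the authors' ranking by signal, the 6 peaks fell into a strong pair and a weaker group. The peaks at ints-4 (signal 224, rank 98 of 1339) and taf-12 (215, rank 113) stood within the strongest 8.44% of the optimal list. Those at rpb-11 (100.5, rank 717) and rpb-12 (100.4, rank 722) were in the middle, and those at rpb-9 (77.1, rank 1226) and mdt-22 (75.4, rank 1288) lay just above the lowest optimal signal of 74.0. The median rank of the 6 was 719.5, against 640.0 for the other bound coding genes. With the 669 strongest optimal peaks alone, 2 of 59 members were bound (3.39%), against 2.01% of other coding genes. The signal is the authors' own value per peak, on a scale not stated, and was read within a list.

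**Figure D1:**
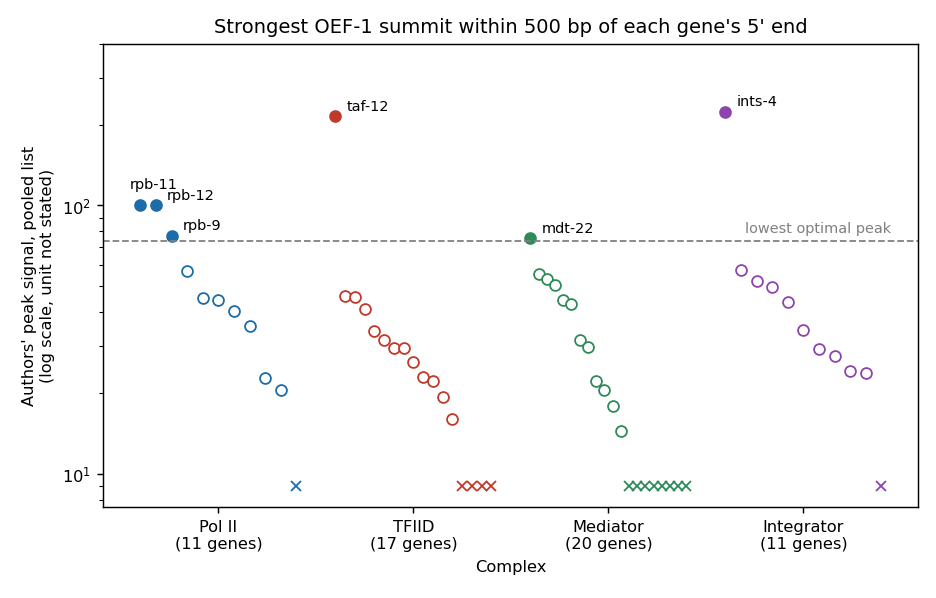
Authors' peak signal (log scale) of the strongest pooled summit within 500 bp of the 5' end, with 1 mark per gene, sorted within each complex; filled circles are genes bound in the optimal list, open circles have a pooled candidate below it, and crosses at the bottom have no pooled candidate. The dashed line is the lowest optimal signal, 74.0, and the 6 labelled genes lie above it, with taf-12 and ints-4 far above the rest.

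Among the Pol II genes, the 3 bound ones encode small subunits. Short length was not particular to them. The unbound rpb-10 (394 bp) and rpb-6 (414 bp) were shorter genes than rpb-12 (536 bp), the shortest bound one. RPB-11 pairs with RPB-3 in the core on which the enzyme assembles, as known from yeast. The rpb-11 gene (WBGene00012187, II, 14060085 to 14060624, plus strand) had its summit at 14059966, outside coding genes and upstream of the 5' end. Its signal was 63.1 in replicate 3 (rank 1016) and 38.9 in replicate 4 (rank 412), so it stood higher in the order of replicate 4. No other coding 5' end lay within 500 bp, the nearest being that of W01G7.4, whose 5' end was 773 bp away.

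RPB-12 is a zinc-binding subunit that yeast and human cells share among their nuclear RNA polymerases. The summit at rpb-12 (WBGene00009078, IV, 9146334 to 9146869, minus strand) lay at 9147202, 333 bp upstream of its 5' end. It lay nearer to the divergent gene aly-2, at 266 bp upstream, so this peak cannot be assigned to one of them by position. aly-2 belongs to a family of messenger RNA export adaptors. The signal at rpb-12 was 72 in replicate 3 (rank 764) and 31.3 in replicate 4 (rank 713), close in rank.

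RPB-9, another small zinc-binding subunit, takes part in transcript fidelity and elongation, as known from yeast. At rpb-9 (WBGene00022400, V, 8011213 to 8012345, minus strand) the summit lay downstream of the 5' end, at 8012257, 88 bp inside the gene and in coding sequence. The gene upstream, Y97E10AR.6, ends 51 bp away on the same strand. The signal was 42.3 in replicate 3 (rank 2053), outside the 1339 strongest peaks of that list, and 31.8 in replicate 4 (rank 687).

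The other 8 Pol II genes were not bound, and each had a candidate summit within 500 bp in at least 1 list. The highest pooled signals among them were at rpb-3 (56.9, rank 2035), rpb-5 (45.3, rank 2999), which encodes another shared subunit, and rpb-10 (44.6, rank 3063). The rpb-3 summit was 134 bp upstream of rpb-3 and 143 bp upstream of pas-4, a proteasome gene pointing the other way. The rpb-10 summit lay nearer to Y37E3.1. At rpb-2, which encodes the second largest subunit, the pooled signal was 20.5 (rank 13967). rpb-6 had a candidate in replicate 3 (rank 13275), but in neither the pooled list nor replicate 4.

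Of the 17 TFIID genes, taf-12 was the bound one. TAF-12 pairs with TAF-4 through histone folds, and in early C. elegans embryos the oocyte proteins OMA-1 and OMA-2 hold TAF-4 in the cytoplasm by competing for this contact. At taf-12 (WBGene00006396, III, 11862385 to 11869281, minus strand) the summit was at 11869572, outside coding genes and 291 bp upstream. A second optimal summit, with a signal of 132, lay 491 bp upstream. The nearest other coding 5' end was 7323 bp away, and no tRNA, snoRNA or snRNA gene lay within 250 bp. The signal was 160.0 in replicate 3 (rank 115) and 62.0 in replicate 4 (rank 105), near the top of both.

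The partner gene taf-4 had a pooled candidate 26 bp upstream with a signal of 45.6 (rank 2964), below the optimal list. Next to it stood taf-9 (46.0, rank 2906) and taf-13 (41.0, rank 3564), which also encode histone-fold subunits, with summits 71 bp and 162 bp inside the genes. The gene for the largest subunit, taf-1, had a pooled signal of 26.0 (rank 8946). Among the paralogues, taf-6.1 (19.4) and taf-6.2 (34.0) both had pooled candidates. taf-7.2 had one (29.4) and taf-7.1, on X, had none. taf-11.2 (22.9) and taf-11.3 (pooled rank 20714) had one, and taf-11.1, on X, did not. No list held a candidate at taf-2 or taf-7.1.

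Of the 20 Mediator genes, mdt-22 was the bound one. It encodes a subunit of the head module, which contacts Pol II. The gene (WBGene00007022, II, 10301216 to 10301888, plus strand) lies inside clpp-1, a mitochondrial protease gene on the other strand. Its summit was at 10301164, 52 bp upstream and within an intron of clpp-1. The signal was 61.2 in replicate 3 (rank 1076) and 14.6 in replicate 4 (rank 4811), so mdt-22 was not among the 1339 strongest peaks of replicate 4.

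Below the optimal list, the strongest pooled candidates at Mediator genes were at mdt-8 (55.6, rank 2120), mdt-17 (53.2, rank 2268) and mdt-27 (50.4, rank 2493). Their summits lay in coding sequence, 113 bp, 123 bp and 28 bp downstream of the 5' ends. mdt-8 and mdt-17 encode head subunits. At mdt-15, whose product is a coactivator of lipid metabolism genes in this animal, the pooled signal was 14.4 (rank 24009). The genes without a candidate in any list were mdt-1.2, mdt-18, mdt-19, mdt-20 and mdt-21.

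Several Mediator genes had optimal summits just outside the 500 bp limit. mdt-26 had summits 601 bp and 800 bp inside the gene (signals 186 and 91.3), and mdt-19 had one 730 bp inside (145). For these 3 summits no other coding 5' end was nearer. A further summit 764 bp upstream of mdt-19 was nearest apb-1, and the one 893 bp upstream of mdt-8 was nearest Y62F5A.12. Among other complexes, taf-11.3 had a summit 814 bp upstream, nearest urm-1. With 1000 bp allowed, 10 of 59 members (16.9%) were bound, against 5.24% of other coding genes, and Mediator then had 4 of 20. On the inside of the limit, the bound gene with the farthest strongest summit was rpb-12, at 333 bp.

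Of the Integrator genes, ints-4 had the highest signal of all 59 members. INTS4 holds the cleavage module together with the nuclease INTS11 and its partner INTS9 in human cells. At ints-4 (WBGene00012234, I, 13663352 to 13674997, plus strand) the summit was at 13663345, outside coding genes and 7 bp upstream of the 5' end. No other coding 5' end lay within 500 bp. The signal was 163 in replicate 3 (rank 105) and 64.4 in replicate 4 (rank 97), above all other members in both.

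Its module partners ints-9 and ints-11 were not bound. At ints-9 the pooled candidate lay 104 bp upstream with a signal of 43.5 (rank 3180), and at ints-11 360 bp upstream with 29.2 (rank 7098). The strongest unbound Integrator genes were ints-5 (57.3, rank 2011), ints-8 (52.1, rank 2358), whose human counterpart is in the phosphatase module, and ints-13 (49.5, rank 2577). At ints-5 and ints-8 the rank in replicate 4, 1098 and 912, was among the 1339 strongest, while in replicate 3 it was 2319 and 8178. Among the 1339 strongest peaks of replicate 4, 3 of 11 Integrator genes thus had a summit (27.3%, interval 6.02 to 61.0), against 3.93% of other coding genes. Among those of replicate 3 it was 1 of 11 (9.09%, 0.230 to 41.3), against 3.79%. ints-3 had no candidate in any list.

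In the full candidate lists, most members had a candidate at the 5' end. These counts include the genes bound in the optimal list, among members and other coding genes alike. Candidates include many weak peaks by design, so each count stands beside that of other coding genes. In the pooled list of 30000 candidates, 45 of 59 members (76.3%, interval 63.4 to 86.4) had a summit within 500 bp, against 33.5% of other coding genes. In replicate 3 it was 44 of 59 (74.6%, 61.6 to 85.0) against 33.9%, and in replicate 4, with 23600 candidates, 40 of 59 (67.8%, 54.4 to 79.4) against 28.7%. A candidate in all 3 of these lists was found at 33 members (55.9%), against 18.4%. For 8 members there was none in any of them (13.6%), against 54.6%.

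By complex, pooled candidates lay at 10 of 11 Pol II genes, 10 of 11 Integrator genes, 13 of 17 TFIID genes (76.5%) and 12 of 20 Mediator genes (60%, interval 36.1 to 80.9). The Pol II and Integrator shares were 90.9% each (58.7 to 99.8), and all 4 intervals overlapped. The order shifted with the list: replicate 3 had candidates at 11 Pol II, 11 TFIID, 13 Mediator and 9 Integrator genes, and replicate 4 at 8, 11, 11 and 10. Mediator had the lowest share in the pooled list and in replicate 4, and a share of 65.0% in replicate 3, beside 64.7% for TFIID.

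Among genes that had a pooled candidate, the share in the optimal list was close for members and other genes. Of the 45 members with a pooled candidate, 6 were in the optimal list (13.3%, interval 5.05 to 26.8), against 11.5% (10.7 to 12.3) of other coding genes with a pooled candidate. The median pooled signal was 35.4 for these members and 26.2 for the other genes. By complex it was 44.9 for Pol II, 38.9 for Integrator, 37.2 for Mediator and 29.4 for TFIID. The median pooled rank of the members was 4750, against 8799.

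**Figure D2:**
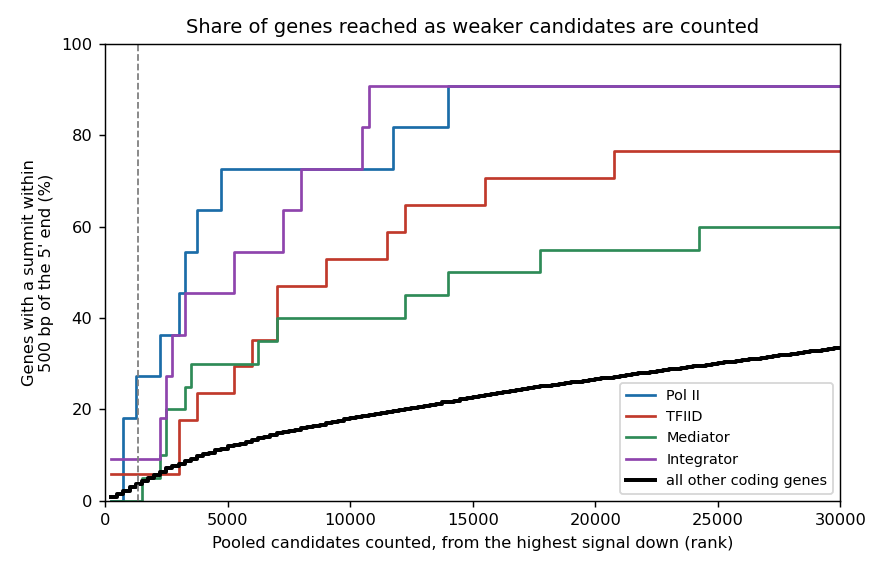
Percentage of genes with a summit within 500 bp of the 5' end (y axis) as pooled candidates are counted from the strongest to the weakest (x axis, rank in steps of 250), with 1 line per complex and a thick black line for all other coding genes; the dashed line marks rank 1339, where the optimal list ends. At rank 5000 the line of the Pol II genes is at 72.7% and that of other coding genes at 11.9%, and at rank 30000 Mediator ends lowest of the complexes, at 60%.

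Between the end of the optimal list and rank 2000 the share of members did not rise. It was 10.2% at rank 1500 and at rank 2000, against 4.32% and 5.66% of other coding genes. Right after that it rose, to 15.3% at rank 2250, against 6.39%. Among the 2678 strongest pooled candidates, 13 of 59 members had a summit (22%, against 7.51% of other coding genes), and among the 5000 strongest 23 had one (39.0%, against 11.9%). At 5000 these were 8 of 11 Pol II genes, 5 of 11 Integrator genes, 6 of 20 Mediator genes and 4 of 17 TFIID genes. These ranks were chosen after seeing the data.

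The replicates were read separately at an equal number of peaks. Among the 1339 strongest of replicate 3, 5 members had a summit (8.47%, against 3.79% of other coding genes), and among those of replicate 4 there were 7 (11.9%, against 3.93%). Optimal and in both of these lists were rpb-11, rpb-12, taf-12 and ints-4, which is 4 of 59 (6.78%), against 2.51% of other coding genes. Outside them were rpb-9 in replicate 3 and mdt-22 in replicate 4. As the optimal list was built from these replicates, presence in them is no independent evidence.

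**Figure D3:**
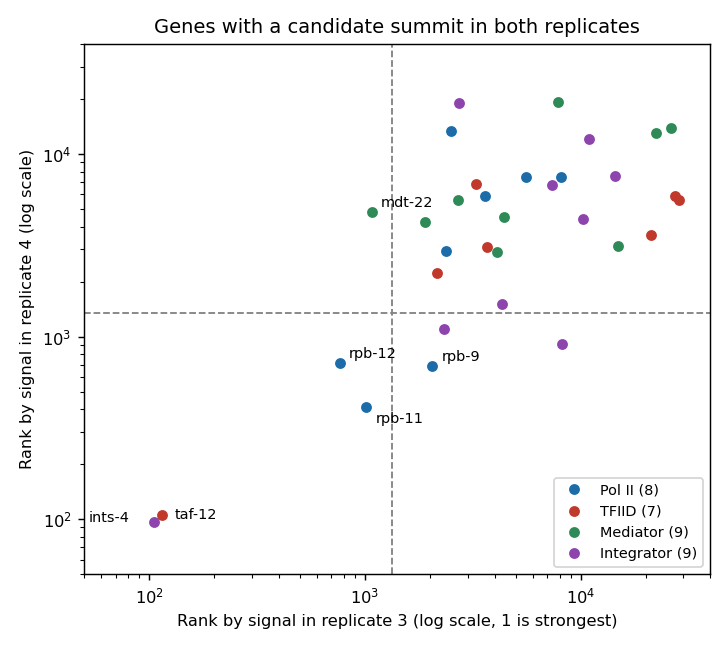
Rank by signal in replicate 3 (x axis) against rank in replicate 4 (y axis), both log scales with 1 the strongest, for the 33 members with a candidate in both; each point is a gene, coloured by complex, and dashed lines mark rank 1339. The points of ints-4 and taf-12 stand together near rank 100 in both replicates, and rpb-9 and mdt-22 each fall inside the line in 1 replicate.

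Both replicates had a candidate at 33 members, and for these the strongest summits lay a median of 80.0 bp apart, against 94.0 bp for 3843 other coding genes. They were within 100 bp of each other at 21 of the 33 (63.6%), against 51.3%. By complex this held for 7 of 9 Integrator, 6 of 8 Pol II, 5 of 7 TFIID and 3 of 9 Mediator genes. For the Mediator genes the median distance was 199 bp.

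Summits of the 6 bound genes lay mostly upstream. Many annotated 5' ends in this animal mark the site of trans-splicing, which can lie downstream of the start of transcription. Relative to the 5' end the strongest optimal summits stood at -333 bp (rpb-12), -291 bp (taf-12), -52 bp (mdt-22), -7 bp (ints-4) and 88 bp (rpb-9), with rpb-11 between taf-12 and mdt-22 and a median of -85.5 bp. The median moved with the peaks used, from -29.5 bp with summits within 200 bp to -205 bp for the 4 genes also among both replicates' strongest peaks. In the main list 5 of 6 (83.3%) were upstream, beside 83.0% of the other bound coding genes, whose median was -183 bp. In replicate 3 the summits nearly coincided with these, the largest shift being at mdt-22 (-29 bp). In replicate 4 the summit was farther upstream at taf-12 (-371 bp) and nearer at rpb-12 (-248 bp).

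**Figure D4:**
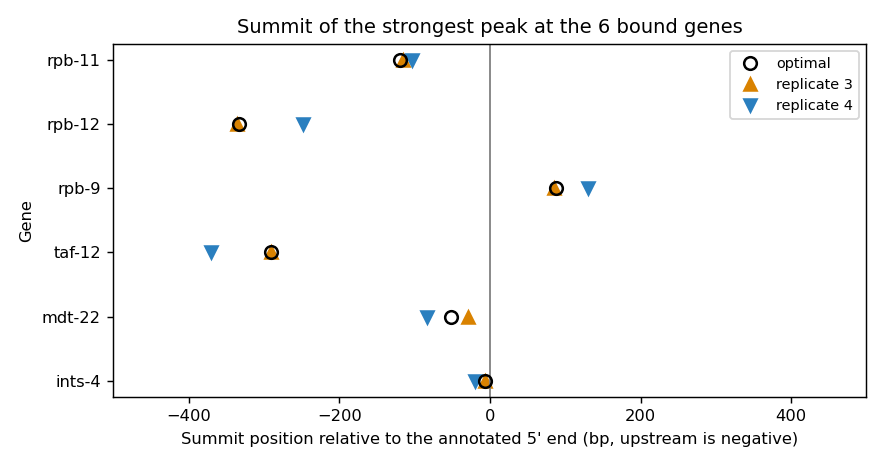
Position of the strongest summit relative to the annotated 5' end (x axis, bp, negative is upstream) at the 6 bound genes (y axis); open circles are the optimal list, upward triangles replicate 3 and downward triangles replicate 4. The summits of rpb-9 lie downstream of the 5' end in each list and those of the other 5 genes upstream.

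Over the whole pooled list, with the summits of the bound genes included, positions were less one-sided. The medians of the complexes differed in sign, with no test made. In the pooled list 27 of 45 summits at members were upstream (60%), beside 56.8% at other coding genes. Upstream were 8 of 10 at Integrator genes, 7 of 10 at Pol II genes, 8 of 13 at TFIID genes and 4 of 12 at Mediator genes. The median pooled offset was 67.0 bp for Mediator and -126 bp for Pol II. In replicate 3 and replicate 4 the Mediator medians were -29.0 bp and -36 bp, so the downstream position of the Mediator median was not seen in either replicate.

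Gene arrangement varied between the complexes. In the worm many genes lie in operons, whose downstream genes can lack a promoter of their own next to the annotated 5' end, and the annotation used here marks no operons. A gap of at most 200 bp to an upstream neighbour on the same strand, the spacing common in operons, was found for 9 of 20 Mediator genes (45.0%), 3 of 17 TFIID genes, 2 of 11 Pol II genes and 2 of 11 Integrator genes, against 9.35% of other coding genes. None of the 9 Mediator genes was bound. Over all members so arranged it was 1 of 16 (6.25%, rpb-9), against 4.51% of other coding genes so arranged. A pooled candidate lay at 8 of the 9 Mediator genes, with a median offset of 109 bp and 1 of 8 upstream. For other coding genes of this arrangement the pooled summits had a median of 76.0 bp, with 32.6% upstream. The gap limit was set after seeing the data.

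Genes whose 5' end lay inside a neighbour, 7 of the 59 with mdt-22 among them, were counted as a class of their own and left out of the next counts. A divergent upstream neighbour that did not overlap the 5' end was found at 7 of 11 Integrator genes (63.6%), 5 of 11 Pol II genes (45.5%), 6 of 17 TFIID genes (35.3%) and 3 of 20 Mediator genes (15.0%). Over all members the share was 35.6%, against 42.2% of other coding genes. Among the members so arranged, 3 of 21 were bound (rpb-11, rpb-12 and ints-4), which is 14.3%, against 5.25% of other coding genes so arranged. No limit was set on the gap to the divergent neighbour, which was 7780 bp at rpb-11, 598 bp at rpb-12 and 1019 bp at ints-4. A pooled candidate lay at 16 of the 21 (76.2%, against 34.2%). The 3 Mediator genes of this class, mdt-1.2, mdt-19 and mdt-26, had no pooled candidate. With a close neighbour on the same strand, 15 of 16 members had one (93.8%, against 60.9%).

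The members had short upstream gaps, with a median of 253 bp to the next coding gene, against 939 bp for other coding genes. Here genes whose 5' end lay inside a neighbour were included again, with negative gaps, and so count as gaps under 500 bp. On autosomes, 35 of the 41 members with a gap under 500 bp had a pooled candidate (85.4%, against 53.4% of other genes with such gaps), as did 10 of 14 with longer gaps (71.4%, against 28.0%). Bound were 2 of the 41 (4.88%, against 7.07%) and 4 of the 14 (28.6%, against 2.90%). The 2 were rpb-9 and mdt-22, the latter with its 5' end inside clpp-1. The part of gene spacing and of promoter activity in these shares was not tested.

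By chromosome, the 4 members on X were mdt-1.2, taf-3, taf-7.1 and taf-11.1. None of them was bound, and none had a pooled candidate, against 0.330% and 10.2% of other coding genes on X. In replicate 4 alone taf-11.1 (rank 4672) and taf-3 (rank 19697) had a weak candidate. On autosomes 6 of 55 members were bound (10.9%), against 4.4% of other coding genes, and 45 had a pooled candidate (81.8%, against 37.2%). On V each of the 9 members had a pooled candidate, against 23.3% of other coding genes there, and on II 11 of 13 had one, against 34.4%. The contrast was smaller on I (78.6% against 49.3%), III (75.0% against 49.7%) and IV (71.4% against 40.5%).

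The rest of the Pol II transcription pathway was read from a list of 75 further genes, of which 72 matched a coding gene. Bound were 8 of these (11.1%, interval 4.92 to 20.7), against 3.85% of the coding genes outside the 59, and 61 had a pooled candidate, against 33.5%. Among subunits of Pol II and Mediator with other symbols, among them ama-1, the gene of the largest Pol II subunit, 0 of 10 were bound (interval 0 to 30.8) and 6 had a pooled candidate. Of the general initiation factors, including tbp-1 and the TFIIB gene ttb-1, 0 of 18 were bound (interval 0 to 18.5) and 17 had a pooled candidate.

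Most of the bound genes of this list act at the 3' end of transcripts. Of 18 cleavage, polyadenylation and termination genes 5 were bound (27.8%, interval 9.69 to 53.5), beside the same background of 3.85%. They were suf-1 (signal 216), a cleavage stimulation factor gene, xrn-2 (176), the gene of the nuclear exonuclease of termination, cids-2 (119.7), ssup-72 (117), of a Pol II tail phosphatase, and symk-1 (76.2), of the scaffold symplekin. The symk-1 summit was nearer to F25G6.9. Of 19 elongation genes 1 was bound, pafo-1 (154), of the PAF1 complex (5.26%, interval 0.133 to 26.0). Of 7 matched genes for the factor of snRNA promoters 2 were bound, snpc-3.4 (93.7) and snpc-3.2 (83.1) (28.6%, interval 3.67 to 71.0). No summit of these 8 genes lay within 250 bp of a tRNA, snoRNA or snRNA gene.

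For scale, 1 of 10 genes named as Pol I and Pol III subunits was bound, rpac-19, whose yeast counterpart is shared by those enzymes (10%, interval 0.253 to 44.5). Of 78 cytosolic ribosomal protein genes 29 were (37.2%, 26.5 to 48.9). The interval of the 59 members, 3.82 to 20.8, lay below that of the ribosomal protein genes and within that of the polymerase genes.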

How the data were processed

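The data were 4 peak lists from 2 ChIP-seq samples of 1 group, deposited on ce11 coordinates. Per the deposited README texts, the candidate lists were made from each replicate's alignment, or both together, with 1 control, as input for an irreproducible discovery rate analysis that gave the optimal list. The peak signal (column 7) and summit offset (column 10) are the authors' values, the signal's scale being unstated. The peak caller and aligner were not given in the sources used here. Read depth is unknown. The ce10 lists were not used.

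Summits (column 2 plus column 10) were set against Ensembl release 115 of WBcel235, with the outermost 5' end of each gene. All 84939 peaks lay inside the RefSeq chromosomes. Ranks count all peaks of a list, mitochondrial ones included. Where several summits lay within 500 bp, the strongest was used. Shares carry exact (Clopper-Pearson) 95% intervals, from SciPy 1.17.1. They cover counting error, not the spread between animals, and genes sharing a peak are not independent. With 1 group, no test was made.

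The members, the pathway list and the rule for named genes were chosen with earlier results of these data known. Named were all bound members with the nearest other gene of each summit, up to 3 unbound members per complex by pooled rank, members with an optimal summit between 500 and 1000 bp, up to 3 members per complex without candidates and up to 12 bound pathway genes. Members named beside these, such as rpb-2, rpb-6, taf-1, mdt-15 and the paralogues, were chosen after their values were seen. The 6-mers had the largest ratio of windows within 50 bp of summits to windows 300 bp to each side, at 100 or more summits.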

Additional observations from a re-analysis of the deposited data

How the results depend on the processing

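The choice of peaks and distance moved the small counts. The 59 members had 10 bound at 1000 bp (16.9%, against 5.24% of other coding genes). With the 669 strongest optimal peaks they had 2 (3.39%, against 2.01%), and at 200 bp 4 (6.78%, against 1.88%). By complex, Mediator had 4 bound at 1000 bp and 0 with the 669 strongest, Pol II had 0 with the 669 strongest, and TFIID had 0 at 200 bp and 2 at 1000 bp. Without replicate 3 or without replicate 4 (the 1339 strongest peaks of the other), the count of members was 7 or 5, of Mediator genes 0 or 1, and of Integrator genes 3 or 1. The share of other coding genes was then 3.93% or 3.79%. Also requiring both replicates' strongest peaks, chosen after seeing the data, left 0 Mediator genes and 4 members (6.78%, against 2.51% of other coding genes). The share of members minus that of other genes, 6.32 percentage points, ran from 1.38 (669 strongest peaks) to 11.7 (1000 bp). The median offset of the nearest summit, -85.5 bp, was -131 bp without replicate 3 and -115 bp without replicate 4, -29.5 bp at 200 bp, -52.0 bp with the nearest 5' end alone, -149 bp with the 669 strongest and -205 bp with both replicates' strongest peaks. Neither changed sign. Any transcript's 5' end, the nearest 5' end alone, or leaving out summits near small RNA genes moved no count of bound genes by over 1.5 times. Causes were not tested. Counts of 11 to 20 genes leave wide intervals, and the depth is unknown.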
